A study of Mus musculus with 5 samples.

Results

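Keratinocytes that had left the basal layer were looked for in single-cell libraries of developing mouse penis. A cell counted as a suprabasal-rule cell when it held 500 to 6000 detected genes, at most 5% mitochondrial transcripts, at least 1 unique molecular identifier (UMI, 1 captured transcript) of 2 or more of the epithelial adhesion genes Cdh1, Perp and Dsp, and at least 1 UMI of 2 or more of the suprabasal genes Krt1, Krt10, Krtdap and Sbsn. The rule found 379 of the 19633 penis cells that passed the filters, against 52827 filtered cells in all 5 libraries. They were compared, library by library, with 261 basal cells, which held 4 or more of Krt5, Krt14, Trp63, Cdh1, Perp and Dsp and at most 1 of the 4 suprabasal genes. These 10 genes chose the cells, so their values are given as a description without a test. The members were thus chosen on measured values, and other genes that vary with the 10 in the same cells could differ for that reason.

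The 3 penis libraries came from male mice at postnatal day 6 (P6), with the prepuce removed so that mainly the glans was sampled, and no treatment was given. One forelimb and one hindlimb library came from male embryos at embryonic day 15. The labels give the genotype of all 5 libraries as C57BL/6N, while the methods of the study name C57BL/6J. The methods name 3 mice of 2 litters for the penis and 6 male embryos for the limbs, and the labels do not tie a library to an animal, so the p-values below measure the spread between libraries. Tissue, age and library preparation cannot be told apart between penis and limb. The deposited tables held 8411 to 11397 barcodes and 70554067 to 100636762 UMIs per penis library, and 25937 and 28266 barcodes in the hindlimb and forelimb. No cell barcode of a suprabasal-rule cell was shared between the penis libraries. Values are given for penis libraries 1, 2 and 3 in that order, as CPM, that is UMIs of a gene per 1000000 UMIs summed over the cells of a class in a library. CPM measure transcript number per total RNA and were compared between cells, not between genes.

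Stratified epithelium renews itself from a basal layer that is anchored to the basement membrane by hemidesmosomes and expresses Krt5 and Krt14. Cells that leave this layer become spinous cells. They switch on Krt1 and Krt10, reinforce their desmosomes and secrete small proteins such as dermokine (Dmkn), suprabasin (Sbsn) and keratinocyte differentiation-associated protein (Krtdap). Later, granular cells make loricrin (Lor), filaggrin (Flg) and involucrin (Ivl), which are crosslinked under the plasma membrane into the cornified envelope. The urethra, which runs through the penis, is lined by another epithelium that is marked by uroplakins.

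Sbsn, Dmkn and Krtdap lie next to each other on mouse chromosome 7, and the 250 bases before their transcription starts are shown because Sbsn and Krtdap choose the cells and Dmkn was among the genes that passed the test below. The sequences are from RefSeq on GRCm38.p6, plus strand, at chr7:30751221-30751470 for Sbsn, chr7:30763506-30763755 for Dmkn and chr7:30787655-30787904 for Krtdap. For Dmkn the first of 3 listed starts was used. The 1 start listed for Sbsn lies inside its gene, which spans bases 30732674 to 30756134. Capitals mark matches to TGANTCA, a loose form of the AP-1 motif that allows any middle base, and to TATAAA, the TATA box, searched on both strands.
Sbsn: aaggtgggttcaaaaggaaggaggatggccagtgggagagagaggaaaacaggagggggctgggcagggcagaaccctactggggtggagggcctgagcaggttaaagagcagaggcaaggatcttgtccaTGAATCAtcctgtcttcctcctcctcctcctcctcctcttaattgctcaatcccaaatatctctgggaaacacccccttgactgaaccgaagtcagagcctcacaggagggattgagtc
Dmkn: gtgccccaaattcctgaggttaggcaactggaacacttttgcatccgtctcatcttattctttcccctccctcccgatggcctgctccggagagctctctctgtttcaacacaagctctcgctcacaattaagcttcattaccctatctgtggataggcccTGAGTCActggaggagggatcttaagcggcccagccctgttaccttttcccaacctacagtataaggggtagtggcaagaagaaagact
Krtdap: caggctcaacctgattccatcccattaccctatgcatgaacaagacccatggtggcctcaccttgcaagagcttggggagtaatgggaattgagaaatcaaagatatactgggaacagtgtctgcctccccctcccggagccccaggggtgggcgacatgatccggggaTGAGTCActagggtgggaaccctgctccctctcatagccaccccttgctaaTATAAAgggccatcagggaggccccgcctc
Each of the 3 windows held 1 match to TGANTCA, at bases -119 to -113 for Sbsn, -89 to -83 for Dmkn and -81 to -75 for Krtdap, counted back from the transcription start. The matched letters were TGAATCA for Sbsn and TGAGTCA for Dmkn and Krtdap. Of 27025 promoter windows of the same length, 6.868% held this motif. Krtdap also held TATAAA at bases -30 to -25, as 12.97% of all windows did. The windows of Krt10 and Calm4 held no TGANTCA, and none of these 5 windows held AACCNGTT, the Grainyhead-like motif, which 1.713% of windows held. A match of letters does not show that a factor binds.

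The suprabasal-rule cells made up a like share of each penis library. They numbered 128, 147 and 104, which is 1.88%, 2.07% and 1.82% of the filtered cells of libraries 1, 2 and 3 (1.92% ± 0.130, SD, n = 3). The exact binomial 95% intervals, which cover counting error only, ran from 1.57% to 2.23%, from 1.75% to 2.43% and from 1.49% to 2.20%. Among cells with 2 or more of the 3 epithelial genes, 54.0% ± 2.65 (SD, n = 3) met the suprabasal rule. There were 85, 101 and 75 basal cells, so that each library held 1.45 ± 0.0598 (SD, n = 3) suprabasal-rule cells per basal cell.

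Depth differed between the classes, which bears on each share of cells with a UMI. The median suprabasal-rule cell held 15439 UMIs, with a range of 1173 to 37880, and the median basal cell held 10408. The median over all filtered cells of a penis library lay between 8786.5 and 9902.5 UMIs. Penis cells of at least 2000 UMIs were also thinned to 2000 UMIs before the rules were applied. Then 33, 33 and 25 cells met the suprabasal rule and 91, 98 and 87 the basal one. Cells with 2 or more suprabasal genes at full depth could then count as basal. Libraries 1 and 3 thus had more basal cells than the 85 and 75 at full depth.

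Against the label of suprabasal keratinocytes, most of these cells also held the transcripts of basal cells. Of the 379 cells, 356 (93.9%) held at least 4 of the 6 genes that define the basal cells, and 309 (81.5%) held Krt5, Krt14 and the basal transcription factor Trp63 together. The summed Krt5 and Krt14 transcripts had a median of 45.5 per 10000 UMIs in the suprabasal-rule cells, with quartiles of 25.3 and 67.4, and of 41.0 in the basal cells. The rule therefore describes keratinocytes in which spinous and basal transcripts were found under the same cell barcode, and 26 cells held at most 1 of Krt5, Krt14 and Trp63. Doublets were not removed by a caller, and their part in this overlap was not tested.

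The 4 suprabasal genes differed in how they marked the cells. Krt1, the type II keratin of the spinous layer, stood at 1113, 545 and 622 CPM in the suprabasal-rule cells of libraries 1, 2 and 3, against 7.44, 9.20 and 19.2 CPM in basal cells. Krt10, its type I partner, stood at 428, 310 and 150 CPM against 11.7, 7.36 and 2.74 CPM. Sbsn, a secreted protein, stood at 87.7, 78.8 and 71.6 CPM against 12.8, 12.0 and 2.74 CPM. For these 3 genes no library of one class overlapped the other, as the rule requires of them in part.

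Krtdap was the gene that most of the cells shared. It was detected in 93.0% of the suprabasal-rule cells and in 55.9% of the basal cells. Its level was 1013, 1028 and 999 CPM in the suprabasal-rule cells and 405, 373 and 451 CPM in the basal cells. Krt1 was detected in 61.9% of the suprabasal-rule cells, Krt10 in 58.0% and Sbsn in 52.6%. In the 17151 penis cells without an epithelial gene, which hold mostly mesenchyme, Krtdap had 18.1 CPM and was found in 7.74% of cells, Sbsn 9.94 CPM and 7.98%, Krt10 27.2 CPM and 20.9%, and Krt1 3.39 CPM. Of these cells, 5.75%, 5.67% and 4.74% held 2 or more of the 4 genes in libraries 1, 2 and 3. Krt10 was higher in cells without an epithelial gene than in basal cells in each library. The basal rule allows at most 1 of the 4 genes, and cells without an epithelial gene had no such limit. This difference is therefore partly set by the rule.

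The basal keratins of the rule were higher in the suprabasal-rule than in the basal cells of each library, and Trp63 was lower in each. Krt14 stood at 3250, 2862 and 2834 CPM against 2678, 2354 and 2480 CPM in basal cells. Krt5 stood at 2269, 2303 and 2036 CPM against 2049, 1606 and 1893 CPM. Trp63, the transcription factor of the basal layer, stood at 367, 392 and 437 CPM against 437, 407 and 551 CPM. Of the adhesion genes, Perp had 791, 612 and 697 CPM against 437, 355 and 398 CPM, and Dsp, which ties keratin to the desmosome, had 790.4, 690.0 and 881 CPM against 552, 404 and 565 CPM. Cdh1, the cadherin of adherens junctions, had 111, 91.3 and 97.4 CPM against 94.6, 113 and 100.1 CPM.

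**Figure D1:**
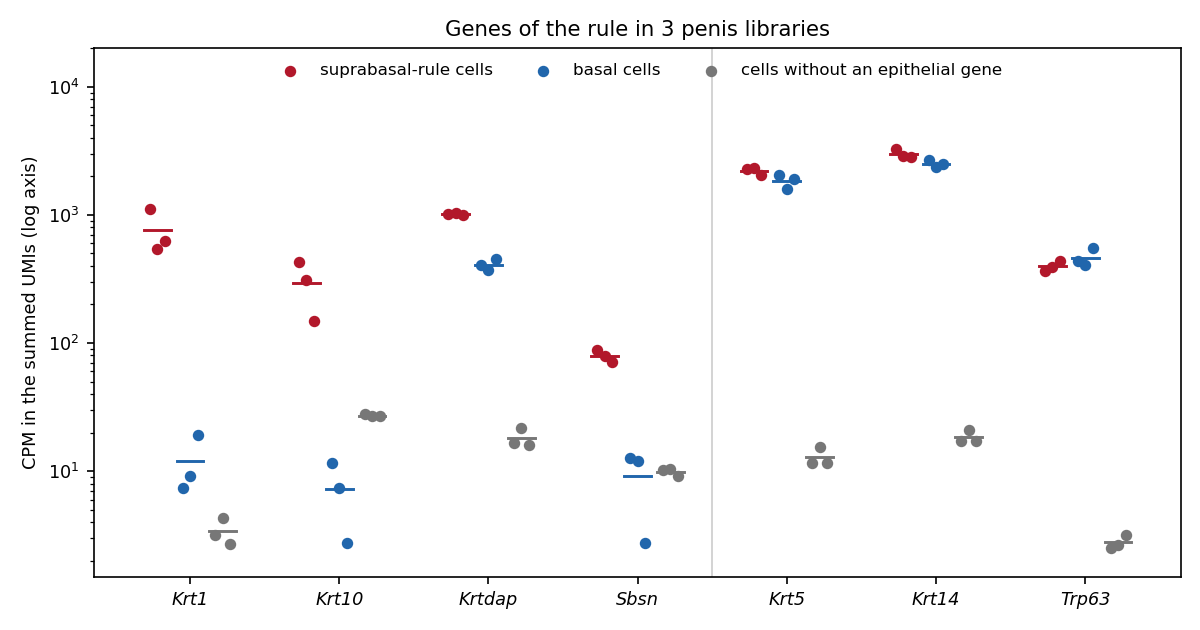
Level of 7 genes of the rule in CPM (log axis) in suprabasal-rule cells, basal cells and cells without an epithelial gene, with 1 point per penis library and the mean as a line. Krt1, Krt10, Krtdap and Sbsn are higher in the suprabasal-rule cells of every library, while Krt5, Krt14 and Trp63 are close in both epithelial classes.

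Few cells held the whole suprabasal set. Of the 379 cells, 195 (51.5%) held 2 of the 4 genes, 119 (31.4%) held 3 and 65 (17.2%) held all 4. The cells with all 4 genes numbered 24, 25 and 16 in libraries 1, 2 and 3. Among the cells with 2 genes, the pair was Krt1 and Krtdap in 65 cells, Krt10 and Krtdap in 61, Krtdap and Sbsn in 45, and a pair without Krtdap in the others. Only 7 of them held Krt1 and Krt10 without Krtdap or Sbsn. The transcripts of the 4 genes together had a median of 8.999 per 10000 UMIs, with quartiles of 4.01 and 22.8 and a highest value of 283.

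Many cells lay next to the threshold of 2 genes. Just outside it, 203 cells with 2 or more epithelial genes held exactly 1 of the 4 suprabasal genes, and 117 held none. Just inside it were the 195 cells with exactly 2. The cells with all 4 genes were deeper, with median depths of 21007.5, 20176 and 17697 UMIs in libraries 1, 2 and 3 against 14307, 13620 and 13390 UMIs in cells with 2 genes. Cells with 3 genes had median depths of 14729, 17356 and 11968 UMIs, so depth did not rise with the number of genes in every library.

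**Figure D2:**
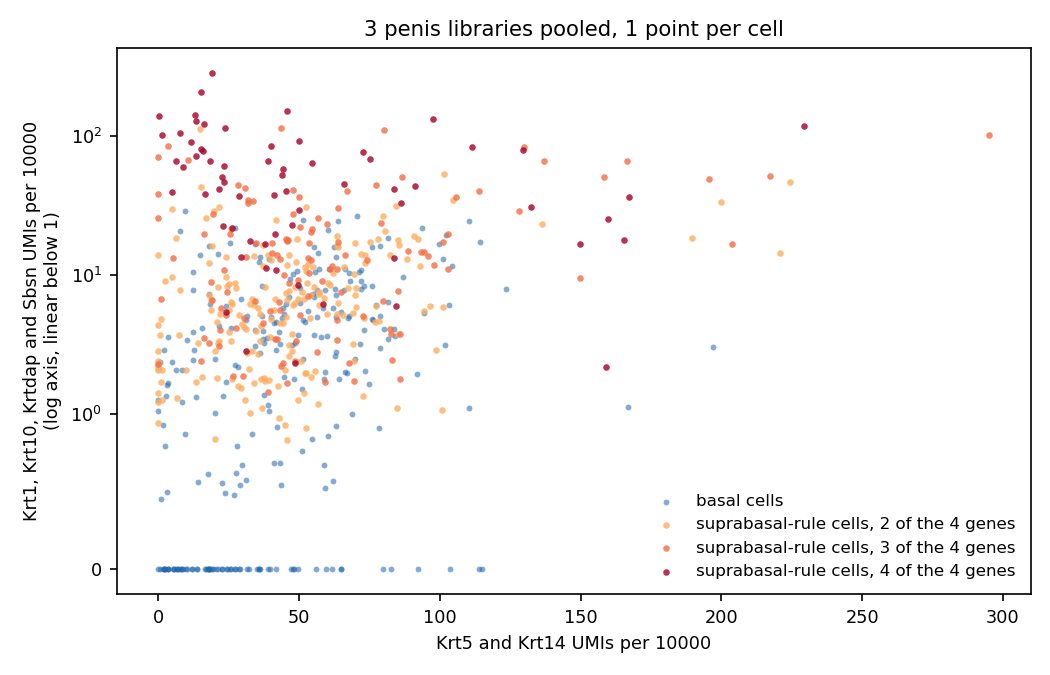
Each point is 1 cell of the 3 penis libraries, with Krt5 and Krt14 UMIs per 10000 on the x axis and Krt1, Krt10, Krtdap and Sbsn UMIs per 10000 on the y axis (log axis, linear below 1). Basal cells and suprabasal-rule cells span the same range of Krt5 and Krt14, and the highest values on the y axis are cells with all 4 suprabasal genes.

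Genes outside the rule were then compared between suprabasal-rule and basal cells of the same libraries. The genes that rose included 5 of spinous-layer secreted and surface proteins, 2 desmosomal cadherins, 3 keratins and 3 differentiation transcription factors, and few genes fell. With edgeR's quasi-likelihood test on UMIs summed per library and class, 23 of 10160 genes were higher (0.226%) and 5 were lower (0.0492%) at an adjusted p under 0.01 and a fold change above 2, that is 1 on the log2 scale. The libraries of the 2 classes did not overlap for 23 of the 23 higher genes and for 4 of the 5 lower ones. These genes were called on the same sums, so the lack of overlap is a description and no further support. At an unadjusted p under 0.05 in edgeR, 599 of the 10160 genes were higher and 763 lower. A positive log2 fold change was found for 5029 of them. A setting added after the data were seen used only cells with all 4 suprabasal genes. There 149 of 7505 genes were higher (1.99%) and 301 lower (4.01%). These cells were chosen by the rule's own genes and were deeper than the basal cells. The counts from this setting below are a description and no separate support. Over all members, DESeq2 called 14 higher and 1 lower. In the lists below with 0 calls in both directions, DESeq2 called 0 as well. The counts depended on the cells and libraries used. They were 56 higher and 127 lower without library 3, 10 lower without library 2 and 56 lower without library 1, and 13 higher and 0 lower without cells that held 3 or more genes of another lineage. With both classes thinned to 2000 UMIs per cell, 13 genes were higher. Of the genes named below, DESeq2 did not call Dmkn, Dsg1a, Krt2, Krt79, Fads2, Zfp750, Ehf and Crabp2, and the fit without the library as a block did not call Dsg1a, Krt79, Fads2 and Crabp2. A stricter gate, named the gate of 2 UMIs below, asked for at least 2 UMIs of 2 or more of the 4 suprabasal genes. Its basal cells held none of the 4 genes. This gate left 67, 64 and 50 suprabasal-rule cells and 19, 33 and 19 basal cells in libraries 1, 2 and 3. With both classes changed in this way, the calls of Ly6d, Them5, Dsg1a, Krt2, Zfp750, Ehf, Fgf14, Crabp2 and Rab25 were lost, at log2 fold changes of 3.13, 2.74, 4.25, 2.87, 2.35, 0.84, 1.98, 1.68 and 1.67.

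Of the spinous-layer list, 14 genes were tested, of which 5 were higher and 0 lower, with a median log2 fold change of 0.86 against -0.0033 over all genes tested. The 5 were Ly6d, Calm4, Them5, Dmkn and Fabp5. Ly6d, a GPI-anchored surface protein of stratified epithelia, stood at 1374, 1055 and 1118 CPM in suprabasal-rule cells and at 107, 273 and 159 CPM in basal cells (log2 fold change 2.83 ± 0.23, SE, 3 libraries each, adjusted p = 5.91e-05, edgeR). Every suprabasal library lay above every basal one, and in each library 1 basal cell held 66% to 68% of the basal Ly6d transcripts. Calm4, a calmodulin-like protein of differentiating keratinocytes, stood at 286, 263 and 166 CPM against 81.8, 46.9 and 50.7 CPM (log2 fold change 2.08 ± 0.15, adjusted p = 1.77e-05, edgeR). Dmkn stood at 259.6, 191 and 243 CPM against 63.8, 118 and 49.4 CPM (log2 fold change 1.62 ± 0.23, adjusted p = 0.0039, edgeR), and it was not called with the members that held at most 1 of Krt5, Krt14 and Trp63, where it had 1.41.

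Them5, an acyl-CoA thioesterase, had 115, 92.1 and 98.7 CPM against 34.0, 23.0 and 34.3 CPM and a log2 fold change of 1.83 ± 0.16. Fabp5, the epidermal fatty acid-binding protein, had 2399.7, 1994 and 2066 CPM against 1037, 946 and 740.4 CPM. Lgals7 and S100a14 did not pass the threshold on fold change. Lgals7, a galectin of stratified epithelia, had 4832, 4635 and 4474 CPM against 3478, 2958 and 3088 CPM, a log2 fold change of 0.62 (adjusted p = 0.000109, edgeR). S100a14, a calcium-binding protein, had a log2 fold change of 0.36 (adjusted p = 0.0709, edgeR). Of 13 spinous-layer genes tested with cells that had all 4 suprabasal genes, 11 were higher, Lgals7 at 1.43 among them, and 0 lower. Over all genes of that setting 1.99% were higher. The call of Ly6d was lost without cells that held 3 or more genes of another lineage, where its log2 fold change was 3.49, and that of Them5 at 2000 UMIs per cell, where it was 1.31.

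Desmosomal genes were the group next to the spinous list. All 10 tested members had a positive log2 fold change, with a median of 0.62, and 2 passed the test. Dsc2, a desmocollin, stood at 89.1, 90.8 and 114 CPM against 26.6, 15.6 and 21.9 CPM (log2 fold change 2.26 ± 0.19, adjusted p = 7.95e-05, edgeR). Dsg1a, one of the desmoglein 1 genes of differentiated layers, stood at 26.5, 12.9 and 29.7 CPM against 7.44, 0.920 and 1.37 CPM (log2 fold change 2.81 ± 0.45, adjusted p = 0.00823, edgeR). It has near-identical copies that can share reads, so its level is uncertain. The call of Dsc2 was lost at 2000 UMIs per cell, where its log2 fold change was 1.13, without cells with genes of another lineage, where it was 1.74, and with members that held at most 1 of Krt5, Krt14 and Trp63, where it was 1.32. Dsc3, the desmocollin of the lower layers, had 210.0, 196 and 222 CPM against 153, 101 and 129 CPM, and Pkp1, a plakophilin, had 246, 214 and 225 CPM against 172, 127 and 173 CPM. Their log2 fold changes of 0.79 and 0.62 were under the threshold. Of 11 desmosome genes tested with cells that had all 4 suprabasal genes, 7 were higher and 0 lower, against 1.99% higher over all genes of that setting. Dsc3 and Pkp1 were among the 7 higher desmosome genes, at 1.43 and 1.49. Of 12 tight and gap junction genes 0 passed the test in either direction by edgeR, 2 were higher and 1 lower at an unadjusted p under 0.05, and the median log2 fold change was 0.07. Gja1, the gap junction protein connexin 43, had a log2 fold change of 0.88 (adjusted p = 0.00229, edgeR). Of 8 junction genes tested with cells that had all 4 suprabasal genes, Gja1 and Gjb2 were higher, at 1.85 and 2.37, and Cldn7 was lower, at -2.14.

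Of 13 keratins outside the rule, 3 were higher and 1 was lower. Krt6a, a keratin of activated and mucosal-type epithelium, stood at 229.8, 254 and 289 CPM against 40.4, 39.6 and 38.4 CPM (log2 fold change 2.75 ± 0.12, adjusted p = 3.94e-07, edgeR). Krt9, known from palm and sole epidermis, stood at 102, 37.9 and 71.6 CPM against 5.31, 7.36 and 10.97 CPM (log2 fold change 3.19 ± 0.30, adjusted p = 0.00016, edgeR). Krt2, a keratin of upper spinous cells, stood at 19.7, 18.1 and 31.6 CPM against 4.25, 4.60 and 1.37 CPM (log2 fold change 2.65 ± 0.42, adjusted p = 0.00808, edgeR). Krt6a and Krt9 passed the test under every alternative that could be run. Krt79, a keratin of hair follicle and sebaceous ducts, was lower, at 16.9, 28.8 and 2.58 CPM against 59.5, 80.0 and 45.2 CPM (log2 fold change -1.88 ± 0.30, adjusted p = 0.00823, edgeR). In libraries 1 and 2, 1 cell held 74% and 94% of the Krt79 transcripts of the suprabasal-rule cells. Krt15, a basal keratin, had 4017, 3764 and 3687 CPM against 3269, 2498 and 3079 CPM, a log2 fold change of 0.45 under the threshold. Of 11 keratins tested with cells that had all 4 suprabasal genes, 4 were higher, Krt15 at 1.11 among them. The lower ones were 3, Krt19, Krt79 and Krt8, of which Krt8 was at 0 CPM in those cells.

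**Figure D3:**
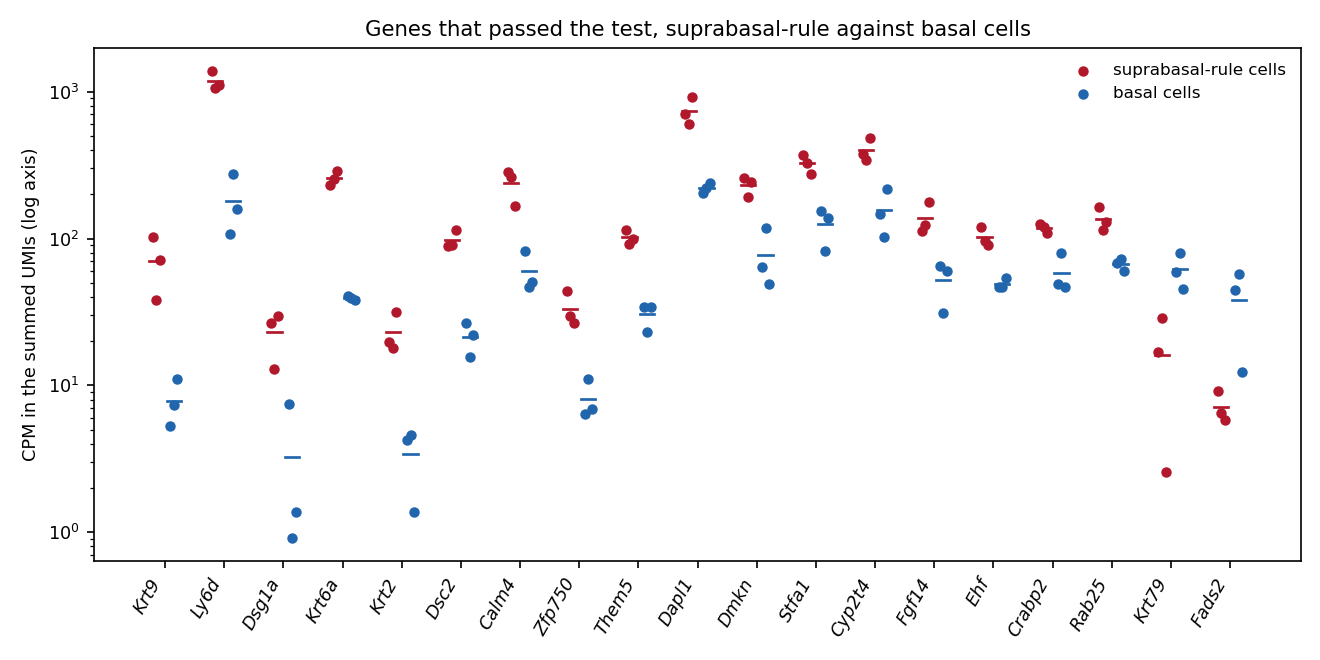
Level in CPM (log axis) of the genes described here that passed the test, in suprabasal-rule cells and basal cells, with 1 point per penis library and the mean as a line. Genes run from the largest positive to the largest negative log2 fold change, from Krt9 with 3.19 to Fads2 with -2.35, and the classes do not overlap for Krt6a, with 229.8 to 289 CPM against 38.4 to 40.4 CPM.

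Among 26 differentiation transcription factors, 3 were higher and 0 lower. Zfp750, a zinc finger protein that promotes terminal differentiation, stood at 43.8, 29.7 and 26.5 CPM against 6.38, 11.04 and 6.86 CPM (log2 fold change 2.06 ± 0.30, adjusted p = 0.00476, edgeR). Ehf, an ETS factor of epithelia, stood at 120.4, 96.9 and 89.7 CPM against 46.8, 46.9 and 53.5 CPM, a log2 fold change of 1.13 ± 0.15. The calls of Zfp750 and Ehf were lost without library 1, where their log2 fold changes were 1.67 and 0.97, and without cells with genes of another lineage, where they were 2.24 and 1.505. Ehf was also not called at 2000 UMIs per cell, where it had 1.18. Barx2 and Rora, the most abundant factors that did not pass the test, had log2 fold changes of 0.22 and -0.40. Of 22 factors tested with cells that had all 4 suprabasal genes, 4 were higher and 3 lower. The lower ones were Klf4, Rora and Tfap2b, at -1.15, -1.26 and -1.06.

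Over all members, 0 genes of the signalling lists passed the test. Of 10 Notch pathway genes, a pathway that promotes the move out of the basal layer, 0 passed by edgeR and 4 were higher and 1 lower at an unadjusted p under 0.05, with a median log2 fold change of 0.16. Notch1 stood at 175, 155 and 143 CPM against 121, 93.8 and 154 CPM (log2 fold change 0.46, adjusted p = 0.158, edgeR), and the classes overlapped. Hes1, a Notch target, had a log2 fold change of 0.25. With cells that had all 4 suprabasal genes, a setting added after the data were seen in which 149 of 7505 genes were higher (1.99%) and 301 lower (4.01%), 3 of 8 Notch genes were higher (Notch1, Notch3 and Jag1) and 1, Jag2, was lower, and 2 of 6 EGF family genes were lower. Of 8 EGF family genes 0 passed by edgeR, also at an unadjusted p under 0.05, with a median of -0.17, and the receptor Egfr had a log2 fold change of 0.18. Of 3 tested genes of innate defence 0 passed by edgeR, also at an unadjusted p under 0.05. Among them the chemokine Cxcl14 had a log2 fold change of -0.02, and Lcn2, an iron-binding defence protein, had 6.26, 6.03 and 25.8 CPM against 3.19, 10.1 and 12.3 CPM. Of 2 defence genes tested with cells that had all 4 suprabasal genes, 1 was higher, Lcn2 at 2.58, and 0 lower.

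Over all members, no basement membrane gene passed the test at the thresholds used. Of 15 tested genes 0 passed in either direction by edgeR, 0 were higher and 6 lower at an unadjusted p under 0.05, 2 had a positive log2 fold change, and the median was -0.23. With cells that had all 4 suprabasal genes 10 of 15 were lower, Col17a1 among them, and 0 higher, with a median of -1.13. Over all genes of that setting 4.01% were lower. Col17a1, the collagen of hemidesmosomes, stood at 368, 426 and 485 CPM against 460.1, 409 and 665 CPM, and the classes overlapped (log2 fold change -0.18 ± 0.11, adjusted p = 0.534, edgeR). Itgb1, an integrin subunit, stood at 212, 216 and 217 CPM against 243, 264 and 282 CPM (log2 fold change -0.23, adjusted p = 0.318, edgeR).

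Over all members, the lists of late differentiation gave little signal. Only 5 of 50 cornified envelope genes were abundant enough to test, 0 passed by edgeR, and 1 was higher and 1 lower at an unadjusted p under 0.05. Of these, Csta1, a cystatin, had a log2 fold change of 0.00 and Scel, sciellin, of -0.06. Of 10 tested genes of envelope crosslinking and proteolysis 0 passed by edgeR and 4 were higher and 0 lower at an unadjusted p under 0.05, with a median of 0.30, and the cathepsins Ctsl and Ctsd had log2 fold changes of -0.11 and -0.07. Of 14 barrier lipid genes 0 were higher and 1 was lower. This was Fads2, a fatty acid desaturase, at 9.15, 6.46 and 5.81 CPM against 44.6, 57.0 and 12.3 CPM (log2 fold change -2.35 ± 0.33, adjusted p = 0.0039, edgeR). In each library 1 basal cell held 44% to 89% of the basal Fads2 transcripts, and the call was lost without library 2, where the log2 fold change was -1.83. Hmgcs1, of cholesterol synthesis, had 113, 85.2 and 86.5 CPM against 225, 291 and 82.3 CPM, and Elovl6 had a log2 fold change of -0.13. More was called with cells that had all 4 suprabasal genes. Of 4 cornified envelope genes 1 was then higher, Lor at 1.06. Of 9 crosslinking and proteolysis genes 3 were higher, Tgm1 at 3.29, Klk13 at 1.34 and Klk8 at 1.18, and 0 lower. Of 10 barrier lipid genes Sult2b1 was higher, at 2.68, and Hmgcs1 and Scd1 were lower.

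Outside these lists, 6 further named genes were higher. Dapl1, a death-associated protein-like gene of epithelial differentiation, stood at 700.3, 602 and 923 CPM against 205, 219.9 and 239 CPM (log2 fold change 1.79 ± 0.11, adjusted p = 4.74e-06, edgeR). Stfa1, a stefin, had a log2 fold change of 1.48, Cyp2t4, a cytochrome P450, of 1.47, Crabp2, which carries retinoic acid, of 1.08, and Rab25, an epithelial GTPase, of 1.06. Fgf14, a fibroblast growth factor homologous factor, stood at 113, 123 and 176 CPM against 64.8, 31.3 and 60.3 CPM (log2 fold change 1.47 ± 0.18, adjusted p = 0.00207, edgeR). Stfa1 belongs to a family of close copies that can share reads. The calls of Crabp2 and Rab25 were lost without library 1, where their log2 fold changes were 0.92 and 0.91. Fgf14 and Crabp2 were not called at 2000 UMIs per cell, where they had 0.56 and 0.53. Dapl1, Fgf14 and Rab25 were not called without cells with genes of another lineage, where they had 2.02, 1.497 and 1.39. Among members with at most 1 of Krt5, Krt14 and Trp63 the direction turned for Cyp2t4, at -2.04, and Fgf14, at -1.09, and Stfa1, Crabp2 and Dapl1 were not called, at 0.85, 0.95 and 1.09.

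Cells with more of the 4 suprabasal genes were described further, without a test, since these strata were defined after the data were seen and their depths differ as given above. The summed spinous-layer list was 6663, 6066 and 5452 CPM in cells with 2 genes, 11448, 8813 and 10255 CPM in cells with 3 and 19338, 19785 and 19832 CPM in cells with all 4. The desmosome list was 764, 631 and 936 CPM in cells with 2 genes and 2049, 1670 and 1633 CPM in cells with 4. The basement membrane list ran the other way, from 2277, 2292 and 2561 CPM to 913, 1046 and 977 CPM. In libraries 1, 2 and 3 alike the cells with 2 genes lay near the basal cells on these 3 lists and the cells with 4 genes lay apart.

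Single genes showed the size of these steps. Ly6d was 572, 313 and 360 CPM in cells with 2 genes and 3380, 3571 and 3087 CPM in cells with 4. Dmkn was 101, 66.0 and 61.7 CPM in the former and 574, 435 and 741 CPM in the latter. Krt9 was 7.63, 5.57 and 21.4 CPM in the former and 329, 147 and 265 CPM in the latter. For these 3 genes the cells with 2 suprabasal genes lay far below the cells with 4 in every library.

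Dsc2 and Col17a1 had opposite orders over the same strata. Dsc2 was 32.7, 15.8 and 51.7 CPM in cells with 2 genes and 233, 266 and 314 CPM in cells with 4. Col17a1 was 445, 515 and 606 CPM in cells with 2 genes and 173, 219 and 157 CPM in cells with 4. The summed Krt5, Krt14 and Trp63 transcripts had no such order, with 5074, 5414 and 4695 CPM in cells with 2 genes, 6679, 5940 and 6968 CPM in cells with 3 and 6315, 5250 and 4452 CPM in cells with 4. The division list was 1065, 1034 and 1704 CPM in cells with 2 genes, 1283, 1967 and 909 CPM in cells with 3 and 919, 584 and 728 CPM in cells with 4, the lowest of the strata in each library. The Notch pathway list was 596, 515 and 561 CPM in cells with 2 genes and 872, 865 and 784 CPM in cells with 4.

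**Figure D4:**
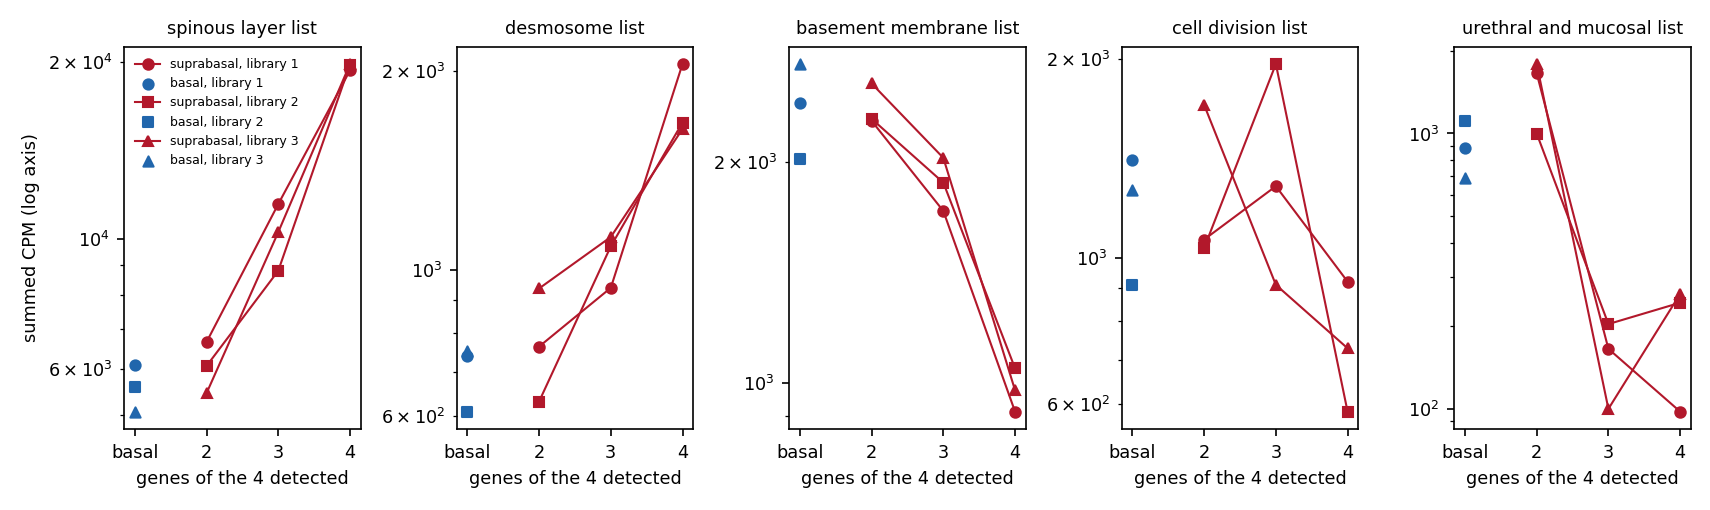
Summed CPM (log axes) of 5 gene lists in basal cells and in suprabasal-rule cells with 2, 3 or 4 of the 4 suprabasal genes, with 1 symbol per penis library. The spinous and desmosome lists are highest and the basement membrane and cell division lists are lowest in cells with 4 genes in every library, while cells with 2 and 3 genes have no common order for cell division.

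Granular transcripts other than Lor were rare. Of the 379 cells, 147 (38.8%) held at least 1 of Lor, Flg, Flg2, Ivl, Hrnr and Casp14, and 7 (1.85%) held 2 or more, that is 3, 4 and 0 cells in libraries 1, 2 and 3. Almost all of this was Lor, found in 137 cells at 79.6 ± 8.52 CPM (SD, n = 3), against 51.6 ± 14.6 CPM in basal cells and 1.21 CPM in cells without an epithelial gene. Flg had 2 UMIs, Casp14 had 11 and Ivl had 14 in all suprabasal-rule cells. Flg2 and Hrnr had 0 UMIs of 5949163, which allows a level of up to 0.504 CPM. At 2000 UMIs per cell no cell held 2 of these genes, so the share is at the limit of the depth.

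Transcripts of the urethral and mucosal list were concentrated in a few penis suprabasal-rule cells. The 26 cells with at most 1 of Krt5, Krt14 and Trp63, 11, 7 and 8 in libraries 1, 2 and 3, had 11753, 15539 and 16588 CPM of the urethral and mucosal list. The other members had 81.7, 229 and 386 CPM. Psca, a surface protein of urothelium and other mucosae, had 4754, 8577 and 9922 CPM in the 26 cells, and its UMIs were in 4, 1 and 3 of them. The uroplakins Upk1a, with 418, 375 and 308 CPM, and Upk1b, with 341, 751 and 343 CPM, and the simple keratin Krt19, with 2361, 1464 and 1885 CPM, were present in each library, while Krt20 was at 0. In library 2 all UMIs of these 3 genes in such cells were in 1 cell. In these cells the mesenchyme list stood at 6341, 20475 and 4353 CPM against 1048, 1871 and 1789 CPM in the other members. The glial list stood at 0, 37.5 and 2828 CPM in these cells against 9.25, 7.93 and 10.7 CPM in the other members. The urethral and mucosal list was not particular to the penis. Limb members with at most 1 of Krt5, Krt14 and Trp63 had 28036.5 and 8026 CPM of it in forelimb and hindlimb. There Psca had 4526 and 1832 CPM and Upk1b 2246 and 436 CPM, while Upk1a had 0 and 3.54 CPM. These limb transcripts came from few cells. The Psca UMIs were in 5 of 23 forelimb and 5 of 54 hindlimb cells, and those of Upk1b in 6 and 5.

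In penis, the transcripts of the urethral and mucosal list sat in cells with few suprabasal genes. The list summed to 1655, 999.7 and 1788 CPM in cells with 2 of the 4 genes, 165, 203 and 100.0 CPM in cells with 3, and 97.8, 243 and 261 CPM in cells with 4. Psca was 669, 482 and 942 CPM in cells with 2 genes and 0 in all cells with 4. Against basal cells, 0 of 9 tested genes of the list passed by edgeR and 0 were higher and 2 lower at an unadjusted p under 0.05. Psca had a log2 fold change of 0.01 ± 0.34 and Krt4 of -0.50. Of 8 genes of the list tested with cells that had all 4 suprabasal genes, 5 were lower than in basal cells and 0 higher. These were Krt19, Krt8, Psca, Upk1a and Upk1b, and the median was -4.40. Psca, Krt8 and Upk1b were at 0 CPM in the cells with all 4 genes. They were tested because of the basal sums and could only come out lower. Without a test, 4, 1 and 2 of the 26 cells and 2, 5 and 2 of the other members held 5 or more genes of the list, a limit set after the data were seen. Among basal cells, so did 1, 2 and 1 with at most 1 of Krt5, Krt14 and Trp63, and 1, 1 and 1 of the rest.

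Transcripts of other lineages were found in both classes. Of the suprabasal-rule cells 276 (72.8%) and of the basal cells 183 (70.1%) held 3 or more genes of 1 of 5 lists of other lineages. The mesenchyme list summed to 1377, 2298 and 1885 CPM in suprabasal-rule cells and 1999, 4491 and 1584 CPM in basal cells, against 23492 to 23617 CPM in cells without an epithelial gene. The red blood cell list summed to 5378, 443 and 4893 CPM against 4757, 10190.0 and 6294 CPM. In the suprabasal-rule cells the endothelial list lay between 15.9 and 40.0 CPM, the immune list between 3.85 and 7.32 CPM, the melanocyte list between 1.93 and 3.23 CPM, the mural list between 7.74 and 128 CPM and the glial list between 8.61 and 117 CPM. Of 8 mesenchyme, 4 endothelial and 5 red blood genes tested, 0 passed by edgeR and 0 were higher and 4, 4 and 1 lower at an unadjusted p under 0.05, with median log2 fold changes of -0.53, -1.51 and -1.27, and 0 genes of the immune, glial, mural and melanocyte lists were abundant enough to test. Of the hair follicle and sebaceous list 1 gene was tested, Mgst1, with 236, 86.5 and 91.6 CPM against 141, 764 and 156 CPM. The part of these transcripts in the results was not tested beyond the counts without such cells given above.

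Division transcripts were compared with those of basal cells at equal depth, in a design of 3 pairs that cannot pass the threshold. After thinning to 2000 UMIs, 9.52%, 11.6% and 8.74% of suprabasal-rule cells and 15.6%, 9.68% and 9.59% of basal cells held 2 or more of 8 division genes. The mean difference was -1.65 percentage points (exact paired permutation test, two-sided, p = 0.75), and 0.25 is the smallest p that 3 pairs allow. The direction turned with depth. At 4000 UMIs the shares were 15.7%, 17.4% and 17.5% against 12.9%, 11.5% and 9.84%, higher in suprabasal-rule cells in 3 of 3 libraries, with a mean difference of 5.43 points (exact paired permutation test, p = 0.25). This depth left out 23, 23 and 14 basal cells and 13, 9 and 7 suprabasal-rule cells as too shallow, against 8, 8 and 2 and 2, 1 and 1 at 2000 UMIs, so the depths compare different sets of cells. Without thinning the difference was 11.5 points. Of 32 division genes 0 passed the edgeR test and 2 were higher and 0 lower at an unadjusted p under 0.05, with a median log2 fold change of 0.14. Top2a had 79.0, 115 and 92.9 CPM against 118, 53.4 and 101 CPM, and Cenpf had 77.5, 91.7 and 138 CPM against 135, 55.2 and 107 CPM. Both genes are made in dividing cells, and the classes overlapped for both. Of 22 division genes tested with cells that had all 4 suprabasal genes, 0 were higher and 2 lower, Cenpe and Ube2c, with a median of -0.56.

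The same rule was applied to the limb libraries, where it found 30 cells in the forelimb and 72 in the hindlimb. In contrast to the penis, 77 of these 102 cells held at most 1 of Krt5, Krt14 and Trp63. Their median depths were 4771 and 3974 UMIs, and their UMIs summed to 731795. For most named genes a large part of the limb transcripts came from 1 or a few cells, for example 43.5% of the forelimb Krt13 and 41.4% of the forelimb Asprv1 from a single cell. At an unadjusted p under 0.05 in edgeR, 1799 of 11089 genes were higher in penis and 1944 lower. With 3 penis and 2 limb sums, edgeR called 306 of 11089 genes higher in penis (2.76%) and 649 lower (5.85%). Without penis library 3 these were 67 and 118, without library 1 they were 134 and 316, and without library 2 they were 137 and 310.

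The difference between suprabasal-rule and basal cells itself differed between penis and limb for 17 of 10527 genes. The suprabasal-minus-basal value was higher in penis than in limb for 2 genes (0.019%) and lower for 15 (0.142%) in a test of the interaction of class and tissue with edgeR. Of the 15, loricrin had 686 and 6227 CPM in forelimb and hindlimb suprabasal-rule cells against 42.2 and 51.9 CPM in limb basal cells, with 69.8, 85.7 and 83.2 CPM against 38.3, 67.2 and 49.4 CPM in penis (Lor, log2 difference of differences -5.26 ± 0.56, adjusted p = 0.00208, edgeR). Without the replicate block 0 genes passed in either direction by edgeR, and the call of Lor was lost when any penis library was left out, at -5.23 without library 1, -4.99 without library 2 and -5.16 without library 3.

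Over all members, the penis cells held more basement membrane transcripts than the limb cells. Of 16 tested genes 8 were higher and 0 lower, with a median log2 fold change of 1.93 against 0.07 over all genes tested. The list summed to 1778, 1901 and 2093 CPM in penis and to 674 and 758 CPM in forelimb and hindlimb. Among cells with 2 or 3 of Krt5, Krt14 and Trp63, 7 of 30 forelimb and 18 of 72 hindlimb members, the list summed to 1842, 1930 and 2140 CPM in penis against 1349 and 1148 CPM in forelimb and hindlimb. With cells that had all 4 suprabasal genes, 3 of 13 tested genes were higher, Col17a1, Col7a1 and Lama3, and 0 lower. Over all 5103 genes tested in that setting, 178 (3.49%) were higher and 183 (3.59%) lower. Col17a1 had 368, 426 and 485 CPM in penis and 12.3 and 67.8 CPM in the limbs (log2 fold change 3.18 ± 0.39, adjusted p = 0.000584, edgeR). The laminin 332 subunits Lamb3 and Lama3 had log2 fold changes of 3.78 and 3.71, and Col7a1, of the anchoring fibrils, of 3.26. The calls of Col17a1, Lama3 and Lamb3 were lost without penis library 3, where their log2 fold changes were 3.14, 3.62 and 3.79. Itgb1 and the plakin Dst did not pass, with log2 fold changes of 0.51 and -0.07.

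Over all members, the lists of late differentiation were lower in the penis cells. Of 12 tested cornified envelope genes 10 were lower and 0 higher, with a median log2 fold change of -7.37, against 5.85% lower over all genes tested. A gene was tested if either tissue held enough of its transcripts, and within penis only 5 genes of this list were testable. Genes near 0 in penis therefore entered through the limb sums and could only come out lower. The counts and the median are partly set by this filter. The list summed to 339, 411 and 382 CPM in penis and to 12865 and 11523 CPM in the limbs. The limb sums came mostly from cells with at most 1 of Krt5, Krt14 and Trp63, which had 15504 and 19766 CPM in forelimb and hindlimb. In cells with 2 or 3 of them the list summed to 213 and 161 CPM in the limbs, below the 338, 378 and 365 CPM of such penis cells. In cells with all 4 suprabasal genes it summed to 320.3, 477 and 291 CPM in penis, 555 CPM in the forelimb and 12971 CPM in the hindlimb, and 2 of 4 tested genes were lower in penis. Cnfn, cornifelin, had 0, 1.29 and 5.16 CPM in penis and 5726 and 1904 CPM in the limbs (log2 fold change -11.00 ± 0.78, adjusted p = 5.91e-05, edgeR). Crct1 had 0 UMIs in all penis members and 1662 and 540.1 CPM in the limbs, at least 1816-fold lower when the penis group is set to a floor of 3 UMIs in all, and at least 1071-fold without the forelimb library. Hrnr, hornerin, was likewise at 0 in penis and at 36.8 and 920.0 CPM in the limbs, at least 1238-fold lower with both limb libraries and at least 72.9-fold without the hindlimb library, where 82.4% of the transcripts were in 1 cell. Sprr1b, a crosslinked envelope protein, had a log2 fold change of -9.81. Csta1 and Scel did not pass, with log2 fold changes of -0.33 and -0.43. The call of Hrnr was lost without any 1 of penis libraries 1, 2 and 3, where its log2 fold change was -12.13, -12.07 and -12.27.

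Over all members, enzymes of the barrier were lower too. Of 24 barrier lipid genes 12 were lower and 0 higher, with a median of -2.06, and with cells that had all 4 genes 5 of 11 were lower. Within penis, 14 barrier lipid and 3 innate defence genes were testable, so the limit of the filter given above holds for both lists. Alox12b, a lipoxygenase of the barrier, was at 0 in penis and at 135 and 88.3 CPM in the limbs, at least 206-fold lower, and Abca12, the lipid transporter of lamellar granules, was at least 111-fold lower. Of 14 crosslinking and proteolysis genes 6 were lower and 1, Klk13, was higher, while with cells that had all 4 genes 2 of 9 were lower and Klk13 was not called. In cells with 2 or 3 of Krt5, Krt14 and Trp63 this list summed to 506, 530.0 and 531 CPM in penis and 544 and 757 CPM in forelimb and hindlimb, against 16689 and 8349 CPM in limb cells with at most 1 of them. Asprv1, the protease that processes filaggrin, had 21.7, 6.03 and 36.1 CPM in penis and 11693 and 3803 CPM in the limbs (log2 fold change -8.65 ± 0.72, adjusted p = 0.000107, edgeR). Of 8 innate defence genes 4 were lower, among them the defensin Defb4, at least 352-fold with both limb libraries and at least 138-fold without the forelimb, and S100a7a, with a log2 fold change of -7.28. In cells with all 4 genes the innate defence list summed to 241, 222 and 291 CPM in penis, 143 CPM in the forelimb and 589 CPM in the hindlimb, and its only tested gene was not called. The calls of Defb4 and S100a7a were lost without penis library 3, where the log2 fold changes were -11.17 for Defb4 and -7.16 for S100a7a.

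Over all members, more genes of keratins, junctions and surface proteins were lower than higher. With cells that had all 4 genes this was so for the spinous-layer list and not for keratins or junctions. Of 19 keratins 13 were lower and 1, Krt9, was higher. Within penis, 13 keratins of the list were testable, so the limit of the filter given for the cornified envelope applies here too. Krt13, a mucosal and periderm keratin, had 16.4, 27.5 and 29.7 CPM in penis and 4991 and 717 CPM in the limbs (log2 fold change -6.96 ± 0.74, adjusted p = 0.000317, edgeR). Of 15 spinous-layer genes 8 were lower and 0 higher. Dmkn had 1838 and 1384 CPM in the limbs, a log2 fold change of -2.86, while Ly6d, with 257 and 1103 CPM in the limbs, did not pass. Of 12 desmosome genes 4 were lower and 2 higher. The envelope plakin Ppl had a log2 fold change of -3.85 and Dsg2, a desmoglein of lower layers, of 1.95. Of 16 tight and gap junction genes 6 were lower and 0 higher, among them Cldn1, a claudin of the barrier, with a log2 fold change of -5.02. With cells that had all 4 genes, 4 of 9 keratins were higher (Krt15, Krt6a, Krt7 and Krt9) and 1 was lower, and the median log2 fold change was 2.72 against -3.63 over all members. Of 11 desmosome genes 4 were then higher and 1 lower, of 4 tight and gap junction genes 0 were called by edgeR with a median of 0.43, and of 15 spinous-layer genes 2 were higher, Lgals7 and Ly6d, and 4 lower. Without penis library 3 the calls of Krt13 and Ppl were lost, at -7.09 and -3.85, and that of Dsg2 was lost without library 2 or 3, at 1.93 and 1.94.

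Of 10 urethral and mucosal genes 9 were lower and 0 higher, and the list summed to 808, 580.2 and 996 CPM in penis and to 23235 and 4824 CPM in the limbs. Upk1b had 21.7, 22.4 and 30.3 CPM in penis and 1862 and 259 CPM in the limbs. Few limb members held 5 or more genes of the list. These were 5 of 23 in the forelimb and 4 of 54 in the hindlimb with at most 1 of Krt5, Krt14 and Trp63. Among limb members with 2 or 3 of them they were 0 of 7 and 1 of 18. In limb cells with all 4 suprabasal genes the list summed to 95.2 and 56.6 CPM, below the 97.8, 243 and 261 CPM of such penis cells, and of 2 tested genes 1, Krt7, was higher in penis and 0 were lower. Krt7, a simple-epithelial keratin, had a log2 fold change of -5.26 over all members and of 3.86 when only cells with all 4 genes were used. The calls of Upk1b and Krt7 were lost without penis library 3, where their log2 fold changes were -5.65 and -5.33.

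**Figure D5:**
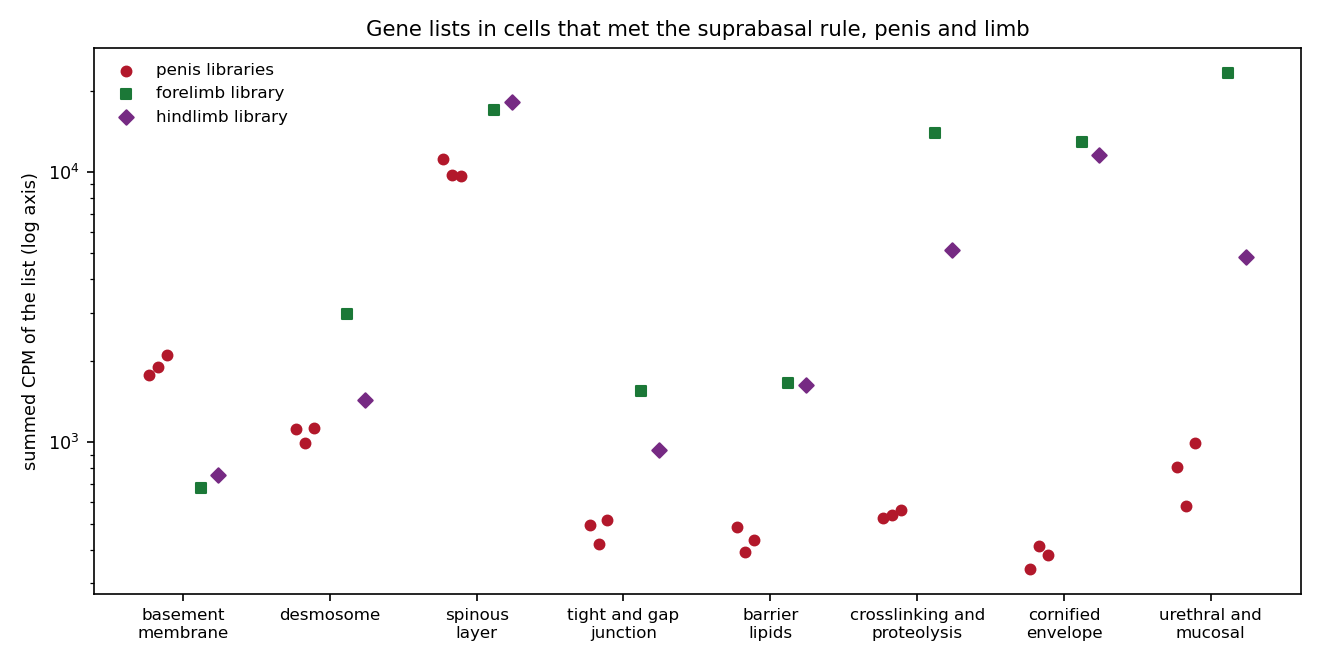
Summed CPM (log axis) of 8 gene lists in cells that met the suprabasal rule, with 1 point for each of the 3 penis libraries, the forelimb and the hindlimb library. The basement membrane list lies higher and the cornified envelope list lower in each penis library than in both limb libraries.

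Of 26 differentiation transcription factors 6 were lower and 3 higher. Hopx, a homeodomain protein of upper layers, had 55.9, 42.6 and 83.9 CPM in penis and 3357 and 941 CPM in the limbs, a log2 fold change of -5.25. Tfap2b, an AP-2 factor, was higher, with 296, 286 and 348 CPM against 12.3 and 76.0 CPM. Of 10 Notch genes 1 was higher, the ligand Jag2, and 1 lower, the feedback gene Nrarp, with log2 fold changes of 2.89 and -2.24. Of 9 EGF genes the receptor Egfr was higher and its inhibitor Errfi1 lower, with 1.17 and -1.76. Of 34 division genes 5 were lower and 0 higher, among them Birc5 with -1.63, and the median was -0.46. With cells that had all 4 suprabasal genes, Tfap2b and Nrarp were not called, at 1.65 and -2.08, Jag2 was not among the genes tested, 1 of 7 Notch genes was higher, Notch1, and 9 of 26 division genes were lower with a median of -1.82. Most of these calls were lost without 1 library. Tfap2b had 2.64, 2.65 and 2.54 without penis libraries 1, 2 and 3, and Egfr had 1.21, 1.27 and 1.10 there and 0.90 without the forelimb. Without penis libraries 2 and 3 Jag2 had 2.77 and 2.85 and Nrarp had -2.04 and -2.13. Birc5 had -1.48 without penis library 1, -1.62 without library 3 and -1.34 without the hindlimb. Of the other lineage lists, 3 of 8 mesenchyme genes and 1 of 1 immune gene were lower, and 0 of 2 hair follicle, 0 of 3 mural, 0 of 5 red blood and 0 of 1 endothelial genes passed by edgeR, of which 2 red blood genes were lower at an unadjusted p under 0.05 and DESeq2 called 1, and 0 glial and melanocyte genes were tested.

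Outside the lists, the named genes with the largest difference in favour of penis were at 0 in the limb members. Gria4, a glutamate receptor subunit, had 457, 486 and 735 CPM and 0 UMIs in the limb members, at least 132-fold higher with the limb sums together set to a floor of 3 UMIs. With the hindlimb left out the forelimb sum is smaller, and the bound was 44.1-fold. Isl1, a LIM homeodomain factor of the genital tubercle, had 164, 137 and 151 CPM and was at least 36.6-fold higher, or 12.2-fold without the hindlimb. These genes were not particular to the suprabasal-rule cells, since penis basal cells held Gria4 at 606, 542 and 655 CPM and Isl1 at 158, 158 and 191 CPM. Fgf14, Ankfn1, Slc5a7, a choline transporter, the channels Kcnh1 and Scn3a, and Thsd7b were also at 0 in the limb members, with bounds of at least 32.6-, 31.4-, 21.9-, 18.8-, 17.6- and 15.0-fold, or 10.9-, 10.5-, 7.34-, 6.30-, 5.89- and 5.03-fold without the hindlimb. The call of Thsd7b was lost without penis library 1 or 3.

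Outside the lists, the named genes lower in penis were Bglap3, Lypd5, Myoz2, Defb14, Hbb-y, Serpinb7, Cma1, Slc39a2, Egfem1 and Slc2a3. Slc2a3, a glucose transporter, had 2.41, 3.44 and 1.29 CPM in penis and 1646 and 327 CPM in the limbs (log2 fold change -8.64 ± 0.75, adjusted p = 0.000132, edgeR). Hbb-y, an embryonic globin, was at 0 in penis and at 16.3 and 84.2 CPM in the limbs, at least 122-fold lower with both limb libraries and at least 32.4-fold without the hindlimb. Of Bglap3 79.5% of the forelimb transcripts and of Cma1, a mast cell chymase, 83.9% of the hindlimb transcripts were in 1 cell. Without penis library 3 the calls were lost for Bglap3, Defb14, Hbb-y, Serpinb7, Cma1 and Slc39a2, with log2 fold changes of -10.91, -9.38, -9.20, -8.91, -10.59 and -9.11. Bglap3, Defb14, Hbb-y and Slc39a2 were at 0 in penis, so their fitted sizes depend on the prior count. Bglap3, Defb14 and Slc39a2 were at least 295-, 117- and 97.6-fold lower, or 106-, 61.1- and 61.1-fold without the forelimb.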

How the data were processed

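Dissociated penis, forelimb and hindlimb cells were profiled with the 10X Single Cell 3' v3.1 kit in 5 libraries. Per the labels, the authors used Cell Ranger 7.0.0 and mm10, and the deposited values are the resulting raw UMI counts of each gene in each barcode. Whether introns were counted is not given in the sources used here. The filters on cells were applied to all 5 libraries, and doublets were not called.

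The members and gene lists were chosen with earlier results of these data known. Cells were gated with Python 3.11.15 (numpy 2.4.6, pandas 2.3.3, scipy 1.17.1), and UMI counts were summed per library and class. The sums were tested with edgeR 4.0.16 (limma 3.58.1, R 4.3.3) by glmQLFit and glmQLFTest with TMM factors and filterByExpr, and p-values of all tested genes were adjusted together by the Benjamini-Hochberg method. SE is the log2 fold change divided by the square root of F. The 10 genes of the rule were left out of the tests but kept in library sizes. Suprabasal-rule and basal sums of 1 library come from the same cell suspension, so the library was a replicate block. The correlations of their deviations from the class means were 0.0149, 0.107 and 0.227 for libraries 1, 2 and 3. The planned comparison of members with and without granular genes needed 20 cells per sum and was not run.

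Within each of 22 lists, up to 4 called genes with the largest absolute log2 fold change and at least 20 CPM in the higher group were named, with up to 2 uncalled genes of highest mean CPM for lists of functions. Outside the lists, up to 10 called genes per direction with at least 50 CPM and the same direction in every library were named, and 6 per direction for the interaction of class and tissue. Genes known by a model number were counted only, and some genes that the rule names are not reported here. Fabp5, Klk13, the granular and urethral genes by cell and the strata were chosen after their values were seen.

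On simulated counts edgeR recovered 99.5% of 199 changed genes among 10170 for suprabasal-rule against basal cells. For penis against limb edgeR recovered 93.5% of 199 among 11099, and for the interaction 64.5% of 200 among 10537. The changed genes were abundant ones, with set log2 changes of 2 or 3 in either direction. All genes had 1 set dispersion and no library effect. Recovery of smaller changes, down to the threshold of 1, was not tested. Nor was the share of genes that edgeR misses in the measured counts. Alternatives were DESeq2 1.42.0, its size factors in edgeR, no filter on low counts, no replicate block, leaving out each library, cells thinned to 2000 UMIs, a gate of 2 UMIs per suprabasal gene, and other limits on cells. The gate of 2 UMIs also kept only basal cells without any of the suprabasal genes. A gate after thinning and cells with all 4 genes were added after the data were seen. For the gate after thinning, thinned counts chose the cells and their full counts were summed and tested. Counting intervals and floors of 3 counts cover counting error only. Figures were drawn with matplotlib 3.10.9.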

Additional observations from a re-analysis of the deposited data

Results flagged for a closer look

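For 8 named genes the difference between suprabasal-rule and basal cells itself differed between penis and limb (edgeR, interaction term with the library as a block, 10527 genes tested). The suprabasal-minus-basal value was higher in penis than in limb for 2 genes, 0.019%, and lower for 15, 0.142%. Limb values are from 1 forelimb and 1 hindlimb library, and many of these transcripts came from few limb cells.

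Loricrin (Lor) differed by -5.26 ± 0.56 on the log2 scale (SE, adjusted p = 0.00208, edgeR). It stood at 69.8, 85.7 and 83.2 CPM in suprabasal-rule and 38.3, 67.2 and 49.4 CPM in basal cells of the penis, against 686 and 6227 CPM and 42.2 and 51.9 CPM in forelimb and hindlimb. Krt13 differed by -7.45 ± 1.07 (adjusted p = 0.00947, edgeR), with 4991 and 717 CPM in limb suprabasal-rule cells and 0 and 19.5 CPM in limb basal cells. Ly6g6c, a surface protein of the Ly6 family, differed by -8.32 ± 0.72 (adjusted p = 0.000671, edgeR), with 792 and 433 CPM against 0 and 6.48 CPM in the limbs. Klk10, a kallikrein, differed by -6.50 ± 0.71 (adjusted p = 0.00209, edgeR), with 715 and 199 CPM against 0 and 13.0 CPM in the limbs. Krt80 differed by -10.07 ± 1.31 (adjusted p = 0.00947, edgeR), with 286 and 73.9 CPM in limb suprabasal-rule cells and 0 in limb basal cells, and its call was lost without the forelimb library, at -8.90. The chemokine Cxcl2 differed by -13.62 ± 1.77 (adjusted p = 0.00962, edgeR), with 4.08 and 121 CPM in limb suprabasal-rule cells and 0 in limb basal cells. For Krt80 and Cxcl2 the fitted size depends on the prior count, since the limb basal sums were 0. In penis Cxcl2 stood at 0.963, 0.430 and 0 CPM against 6.38, 42.3 and 0 CPM in basal cells, and limb cells without an epithelial gene had 68.1 and 63.5 CPM. Its call was lost without the hindlimb library, at -10.06.

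Cxcl14 and Pclaf went the other way. Cxcl14 differed by 2.82 ± 0.39 (adjusted p = 0.00947, edgeR). It was near its basal level in penis, with 323, 328 and 426 CPM against 363, 293 and 502 CPM, and stood at 81.7 and 359 CPM against 1386 and 1744 CPM in the limbs. Pclaf, a factor of DNA replication, differed by 2.34 ± 0.33 (adjusted p = 0.00947, edgeR), with 28.6 and 88.3 CPM against 259 and 344 CPM in the limbs. Without the replicate block 0 genes passed in either direction by edgeR, and 1765 had an unadjusted p under 0.05, against 1803 with it. Leaving out penis library 1 left 0 genes with a higher and 0 with a lower value in penis. Without penis library 2 these were 0 and 3, without library 3 they were 0 and 1, without the forelimb library 4 had a higher value, and without the hindlimb library 45 and 148 were called. With 1 limb library left the limb has no replicate, and its spread was taken to be that of the penis libraries.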

How the results depend on the processing

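Krt6a, Calm4 and Krt9 were called under each alternative that tested them. All other values below are counts of genes higher and lower, or shares. For suprabasal-rule against basal cells, with 23 and 5 in the comparison as reported, DESeq2 gave 14 and 1, no filter on low counts 68 and 90, the gate of 2 UMIs per suprabasal gene 12 lower, the fit with no replicate block 3 lower, leaving out a library 26 to 56 and 10 to 127, thinned cells 13 higher, and leaving out cells with genes of another lineage 13 and 0. Members with at most 1 basal gene gave 241 and 127. Among choices made after the data were seen, the gate after thinning gave 134 and 224, and cells with all 4 genes gave 149 and 301. Of the 23 higher genes, 23 were also called with cells with all 4 genes, 22 with the gate after thinning and 10 with the gate of 2 UMIs, and of the 5 lower genes 2 and 1 with the first 2 of these.

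For penis against limb, with 306 and 649, no filter gave 795 and 1151, leaving out a library 67 to 423 and 118 to 817, thinned cells 181 and 203, the limb limits of the methods 519 higher, cells without genes of another lineage 262 lower, and cells with all 4 genes 178 and 183. For the interaction, with a suprabasal-minus-basal value higher in penis for 2 genes and lower for 15, the DESeq2 size factors gave 0 and 7, DESeq2 11 higher, no filter 69 and 276, the fit with no replicate block 0 and 0, leaving out a library 0 to 45 and 0 to 148, thinned cells 4 and 23, the gate of 2 UMIs 37 lower, cells without genes of another lineage 0 and 6, the complexity limit of the methods (log10 genes over log10 UMIs) 0 and 7, and the limb limits 0 and 5. For these settings the cause was not tested.

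The share of suprabasal-rule cells, 1.92%, was 0.920% with the gate of 2 UMIs, 0.501% with the gate after thinning and 12.9% among the few cells without genes of another lineage. The granular share was 1.69% per library on average and 0 at 1000, 2000 and 4000 UMIs. The division difference, -1.65 points, was 11.5 without thinning, 5.43 at 4000 UMIs, and from -3.46 to 0.558 when a library was left out, the latter without library 1. With at most 1 basal gene Cyp2t4 had a log2 fold change of -2.04 and Fgf14 of -1.09, and with all 4 genes Krt7 had 3.86 against limb. Over named genes and settings, suprabasal-rule against basal results kept side and direction in 585 cases, lost the call in 44, gained it in 30 and reversed in 2. Penis against limb had 1186, 115, 44 and 1, and the interaction had 41 kept and 66 lost. Thin limb sums and 3 penis libraries limit these comparisons, and genes under the filter on low counts were not tested.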
